A study of Mus musculus with 20 samples.

Results

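The DNA damage response and repair genes are 42 genes listed by name for their function: sensors and signalling kinases of DNA breaks, enzymes of each repair route, and p53 with a few of its classical targets. A member was matched to the array through the RefSeq accession of its probe, and 41 of the 42 had a probe, out of 20972 gene symbols on the array. No probe matched Rad51c. Mice without Tat (Tat-/Sal or Tat-/Meth) and mice with it (Tat+/Sal or Tat+/Meth) made up 4 groups, each of 5 male C57BL/6J mice with 1 array per mouse. Tat+ mice carried a GFAP promoter-controlled Tet-binding protein and a TRE promoter-Tat transgene, so that doxycycline switched on HIV-1 Tat in GFAP-expressing cells. Tat- mice carried only the Tet-binding protein. All mice, controls included, received doxycycline at 100 mg/kg for 7 days. Meth mice received methamphetamine at 2 mg/kg and Sal mice saline over the same days.

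The sources differ on the tissue. The labels give the left hemisphere of perfused brain, 24 h after the last injection, at an age of 6 to 7 weeks. The study's methods give the caudate putamen of mice 3 to 5 months old, after 7 days without drug and then a challenge with 1 mg/kg Meth that every group received 1 h before the harvest. The striatal neuron markers Drd1, Drd2, Ppp1r1b, Adora2a, Penk, Tac1 and Rgs9 were each well above background on all 5 arrays of every group. Levels of different probes cannot be set against each other, so the markers do not settle which tissue was taken.

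DNA repair removes lesions by separate routes. Base excision repair starts when a glycosylase such as Ung or Ogg1 cuts out a damaged base, nucleotide excision repair cuts out bulky lesions, and mismatch repair corrects copying errors. Double-strand breaks are joined end to end by the Ku proteins, DNA-PK and Lig4, or copied from a sister chromatid by homologous recombination. The kinases Atm and Atr signal the damage through Chek2 and Chek1, and p53 answers by raising the transcription of genes such as Mdm2, Cdkn1a and the Gadd45 genes. Neurons do not divide, so that end joining and excision repair are their main routes.

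The stretches upstream of the transcription start of 5 members are shown because these members gave some of the largest changes of either direction in Tat-/Meth mice. They come from RefSeq (GRCm38.p6), run 5′ to 3′ on the gene's strand over 250 bases and end at the base before the start. Capitals mark a TATA box, a CCAAT box, a GC box or a p53 half-site found on either strand.
Ung (chr5:114130185-114130434, plus strand): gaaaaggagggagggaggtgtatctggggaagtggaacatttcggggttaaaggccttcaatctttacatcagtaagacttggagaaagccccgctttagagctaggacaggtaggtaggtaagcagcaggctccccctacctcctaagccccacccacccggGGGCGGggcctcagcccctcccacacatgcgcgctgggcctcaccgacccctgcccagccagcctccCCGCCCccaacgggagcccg
Xrcc5 (chr1:72307171-72307420, plus strand): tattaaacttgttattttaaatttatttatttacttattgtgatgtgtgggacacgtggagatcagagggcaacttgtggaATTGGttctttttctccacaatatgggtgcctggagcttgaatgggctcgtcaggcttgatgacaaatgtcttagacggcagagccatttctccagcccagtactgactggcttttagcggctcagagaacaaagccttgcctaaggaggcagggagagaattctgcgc
Gadd45g (chr13:51846425-51846674, plus strand): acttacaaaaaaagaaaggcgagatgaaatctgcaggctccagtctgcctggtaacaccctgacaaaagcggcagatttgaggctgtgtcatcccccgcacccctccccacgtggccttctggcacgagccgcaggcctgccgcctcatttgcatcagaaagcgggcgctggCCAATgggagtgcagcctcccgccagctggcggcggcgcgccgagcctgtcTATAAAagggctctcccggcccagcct
Chek1 (chr9:36726659-36726908, minus strand): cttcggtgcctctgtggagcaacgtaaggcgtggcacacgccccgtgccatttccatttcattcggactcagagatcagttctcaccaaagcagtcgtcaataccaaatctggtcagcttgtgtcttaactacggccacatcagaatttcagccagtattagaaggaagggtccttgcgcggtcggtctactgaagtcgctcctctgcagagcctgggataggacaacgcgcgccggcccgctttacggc
Gadd45a (chr6:67037408-67037657, minus strand): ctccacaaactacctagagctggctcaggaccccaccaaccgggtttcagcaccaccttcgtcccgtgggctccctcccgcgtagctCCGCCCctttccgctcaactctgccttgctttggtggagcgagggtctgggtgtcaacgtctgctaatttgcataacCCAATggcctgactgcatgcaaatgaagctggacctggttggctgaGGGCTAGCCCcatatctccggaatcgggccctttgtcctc

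Of the 42 members, 34 had an entry in that table, and the first start listed was used for each. A p53 half-site was found upstream of Trp53, Mdm2, Cdkn1a and Gadd45a, which is 11.8% of the 34, and upstream of 7.18% of all 27025 genes listed. A TATA box, with the letters TATAAA, was found upstream of Brca2, Trp53, Gadd45b and Gadd45g, again 11.8% of the 34 and 13% of all genes. A GC box, GGGCGG, was found in 61.8% of the 34 and 32.9% of all genes. The CCAAT box, named by its letters, was found in 52.9% and 34.5%. The AP-1 letters TGACTCA were in none of the 34 and in 4.43% of all genes. The cAMP response element, with the letters TGACGTCA, was upstream of Brca2 and Rad51c, 5.88% of the 34 and 1.62% of all genes. Gadd45a and Gadd45g, which moved in opposite directions, differ in these letters as printed above: both hold a CCAAT box, the first also a GC box and a p53 half-site, and the second a TATA box. The Chek1 stretch held none of the motifs searched.

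Signals are given as log2 intensity after setting the 75th percentile equal between arrays. Testing was limited to genes with a mean of 6 log2 units or more in some group, and 39 members passed that limit. Chek2, the kinase downstream of Atm, had a mean of 4.29 over the 20 arrays and was well above background on 4 of them. Brca1, a core factor of homologous recombination, had a mean of 3.46 and was well above background on 1. Of the 39, 38 were well above background on all 20 arrays, Chek1 being the exception. Groups were compared in limma, with the Benjamini-Hochberg adjusted *p* taken over 15102 genes, and a gene is said to pass when that *p* is under 0.05. In bulk tissue, fewer cells of a type and less RNA per cell cannot be told apart.

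Slide 1 carried the 5 Tat-/Meth arrays alone. The Tat-/Sal arrays shared slide 2 with 3 of Tat+/Meth, and the Tat+/Sal arrays shared slide 3 with the other 2 of Tat+/Meth. In every comparison that involves Tat-/Meth, group and slide therefore cannot be told apart. Bright corner control spots, which do not depend on the sample, read 14.67 to 15.06 log2 units on slide 1, and from 16.79 to 17.44 elsewhere. The 75th percentile before scaling was 9.64 to 9.79 in Tat-/Meth and 9.75 to 10.33 in the other groups. The share of probes well above background ran from 56.5% to 71.5% over all arrays.

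In the Tat-/Meth vs. Tat-/Sal comparison, which asks what repeated Meth did in mice without Tat, 21 of the 39 members passed. Higher in Tat-/Meth were 18 members, led by Ung, Xrcc5, Ercc3 and Nbn, and the 3 lower members were Chek1, Rad50 and Gadd45a. Over all genes tested, 50.2% passed, 35% as higher and 15.3% as lower, so that the share of members that passed was near that of all genes. The median change of the members was 0.19 log2 units and that of all genes 0.14. Only Chek1 changed by more than 2-fold, against 6.85% of all genes. Without any scaling of the arrays the median of all genes moved to -0.29 and that of the members to -0.23, and the members that passed were then 0 higher and 15 lower. The signs below are thus relative to the 75th percentile of each array.

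**Figure D1:**
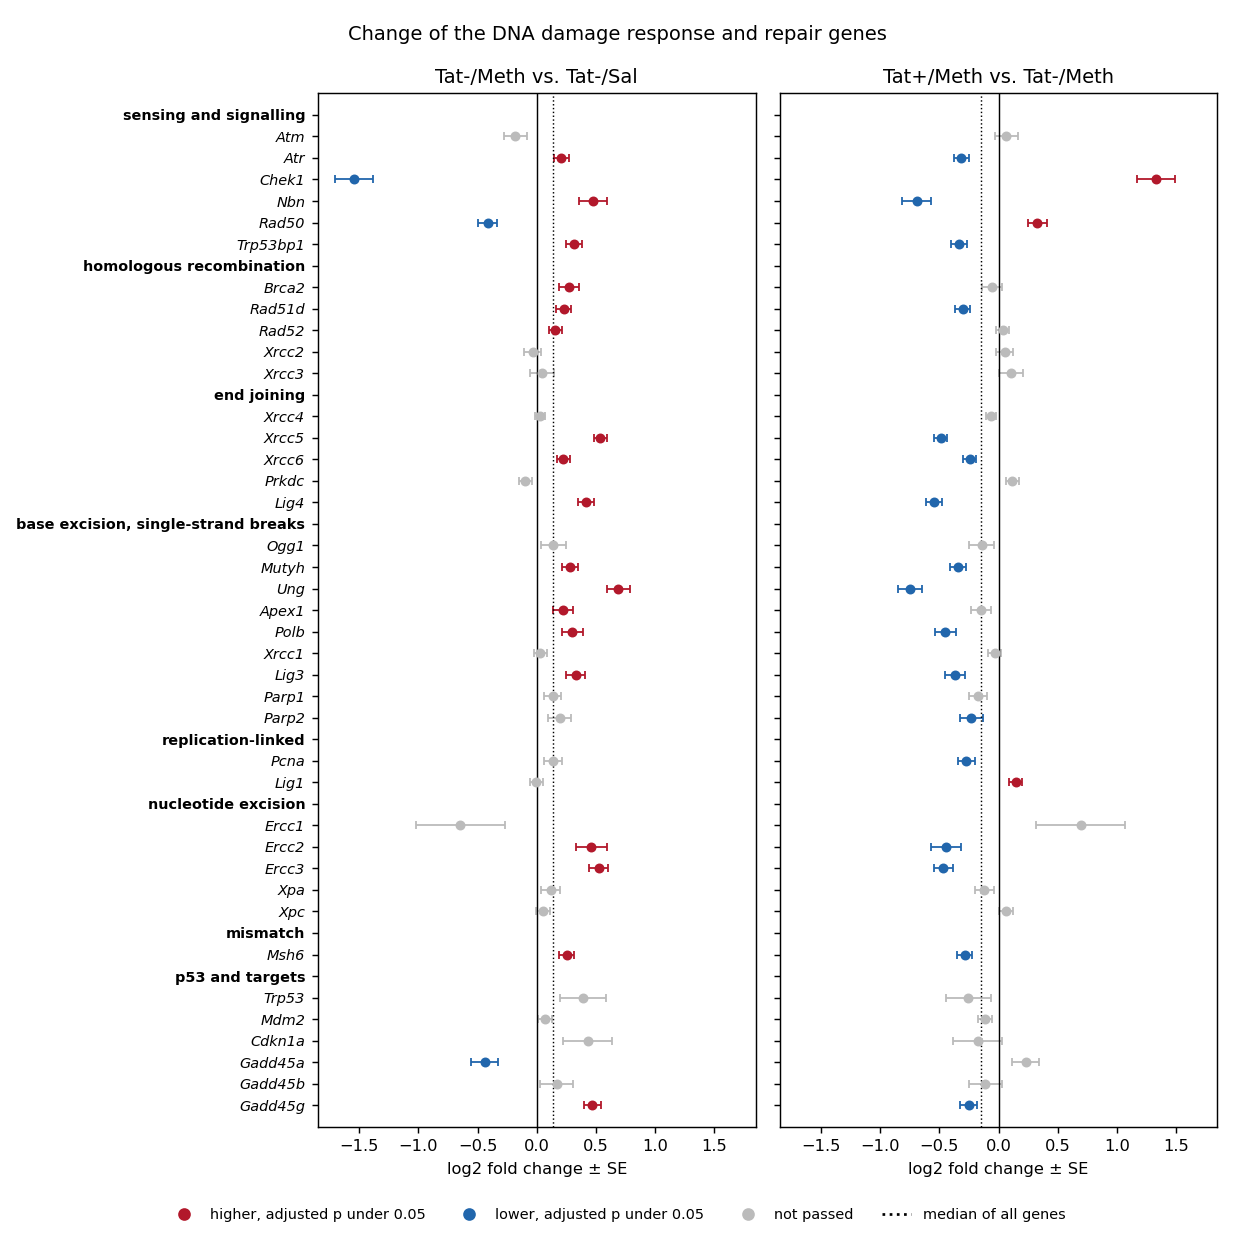
Change of each of the 39 tested members, grouped by repair route, in Tat-/Meth vs. Tat-/Sal (left) and Tat+/Meth vs. Tat-/Meth (right). The x axis is the log2 fold change with its SE, red and blue points passed (higher and lower), grey points did not, and the dotted line is the median of all genes (0.14 left, -0.15 right). Chek1 stands apart on both sides, at -1.54 and 1.33, and the other members lie within 0.75 of 0.

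Base excision repair held the member with the largest rise. Of its 9 members 5 rose in Tat-/Meth and none fell, beside 35% and 15.3% of all genes. The 5 were Ung, Lig3, Polb, Mutyh and Apex1. Ung, the uracil DNA glycosylase, read 14.40, 14.60, 14.57, 14.74 and 14.51 on the Tat-/Meth arrays and 14.04, 13.89, 13.66, 14.05 and 13.74 on the Tat-/Sal arrays. Every Tat-/Meth array was above every Tat-/Sal array, and the change was 0.69 ± 0.10 log2 units (SE, n = 5 per group, limma adjusted *p* = 1.46e-05), or 1.61-fold. Lig3, the ligase that seals the repaired strand, rose by 0.33, Polb, the gap-filling polymerase, by 0.30, Mutyh, the glycosylase that removes adenine opposite an oxidised guanine, by 0.28, and Apex1, the endonuclease that cuts at the site left behind, by 0.22. Ogg1, the glycosylase for oxidised guanine, did not pass at 0.14, nor did Xrcc1, the scaffold, at 0.03, Parp1 at 0.13 and Parp2 at 0.19, which sense single-strand breaks. The replication-linked members Pcna, the sliding clamp, and Lig1, the replicative ligase, did not pass either, at 0.14 and -0.0038.

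End joining showed 3 of 5 members higher, beside 35% of all genes. Xrcc5, which encodes Ku80, read 11.41, 11.45, 11.35, 11.28 and 11.31 in Tat-/Meth and 10.79, 10.87, 10.90, 10.82 and 10.74 in Tat-/Sal. The groups did not overlap, with a change of 0.54 ± 0.06 (limma adjusted *p* = 3e-07). Its partner Xrcc6, which encodes Ku70, rose by 0.22, and Lig4, the ligase of this route, by 0.42. Prkdc, the catalytic subunit of DNA-PK, was at -0.10 and Xrcc4, the partner of Lig4, at 0.03, and neither passed. Over the 20 arrays Xrcc4 ranged only from 10.99 to 11.18.

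The break sensors moved in both directions. Nbn and Rad50 encode 2 of the parts of the complex that binds broken ends. Nbn read 9.84, 9.97, 9.71, 9.79 and 9.49 in Tat-/Meth and 9.31, 9.41, 9.21, 9.29 and 9.20 in Tat-/Sal. Its groups did not overlap and it rose by 0.48 ± 0.12 (limma adjusted *p* = 0.00316). Rad50 read 10.76, 10.54, 10.51, 10.52 and 10.50 in Tat-/Meth and 10.90, 10.92, 11.09, 10.90 and 11.10 in Tat-/Sal. Here every Tat-/Meth array was below every Tat-/Sal array, and Rad50 fell by 0.41 ± 0.08 (limma adjusted *p* = 0.000323). A second Rad50 probe, also well above background on all arrays, differed by -0.09 and did not pass (adjusted *p* = 0.77 over all probes), and with the mean of both probes the fall was 0.25 (adjusted *p* = 0.11). Mre11a, the nuclease of the same complex and no member of the list, was 0.25 higher (adjusted *p* = 0.0228).

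Chek1, the checkpoint kinase downstream of Atr, had the largest change of any member, and it is described because of that size. It read 5.37, 5.16, 5.26, 5.15 and 5.62 in Tat-/Meth and 6.88, 6.73, 6.97, 6.75 and 6.95 in Tat-/Sal. Only 1 of the 5 Tat-/Meth arrays had it well above background, against 5 of 5 in each other group. The groups did not overlap, and the measured change was -1.54 ± 0.16 (limma adjusted *p* = 3.5e-07), or 2.92-fold lower. An alternative used median signals with normexp background correction and an offset of 50 before the logarithm, and is called the added offset below. With it the change was -0.46, which still passed but was no longer past 2-fold. Atr, the kinase itself, rose by 0.21, and Trp53bp1, which binds chromatin beside breaks, by 0.32. Atm could not be given 1 direction. Its brightest probe was at -0.18 and did not pass (adjusted *p* = 0.14 over all probes), while its other probe, well above background on all 20 arrays, rose by 0.49 (adjusted *p* = 0.000252).

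**Figure D2:**
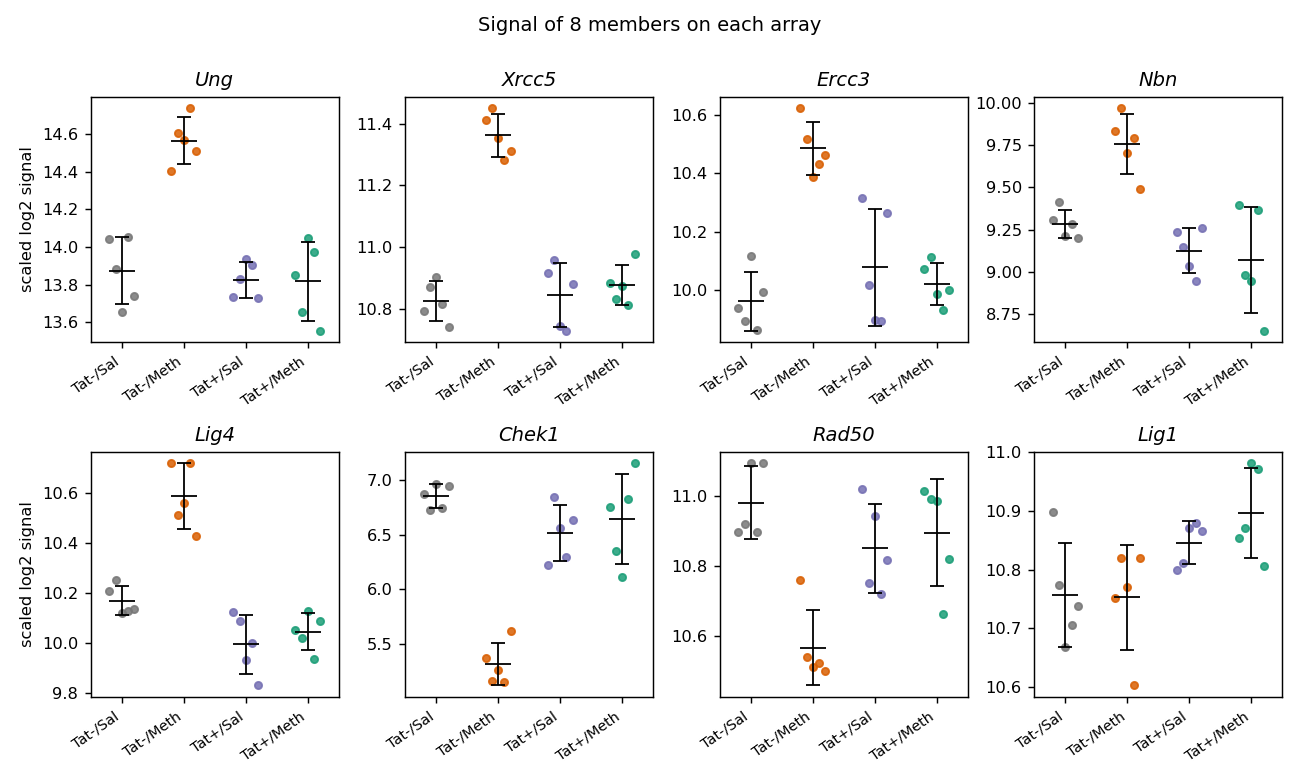
Scaled log2 signal (y axis, a separate range per gene) of 8 members on each of the 20 arrays, by group (x axis), with the mean and SD of the 5 arrays. In Tat-/Meth, Ung, Xrcc5, Ercc3, Nbn and Lig4 lie above and Chek1 and Rad50 below all 5 Tat-/Sal arrays, while Lig1 overlaps them.

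In nucleotide excision repair 2 of 5 members rose, the helicases of the TFIIH complex, beside 35% of all genes, and the others did not pass. Ercc3, which encodes the XPB helicase, read 10.62, 10.52, 10.39, 10.43 and 10.46 in Tat-/Meth and 9.94, 9.89, 10.12, 9.86 and 9.99 in Tat-/Sal. Its groups did not overlap and it rose by 0.53 ± 0.08 (limma adjusted *p* = 3.47e-05). Ercc2, which encodes XPD, rose by 0.46 (adjusted *p* = 0.00602). Xpc, which recognises the lesion, was at 0.05 and Xpa, which verifies it, at 0.12, although a second Xpa probe rose by 0.46 (adjusted *p* = 7.04e-05 over all probes). Ercc1, part of the nuclease that makes the 5′ cut, read 7.88, 10.73, 10.77, 10.73 and 10.53 in Tat-/Meth and 10.63, 10.92, 10.77, 10.75 and 10.80 in Tat-/Sal. A single array, Tat-/Meth replicate 1, was far below all others, and the change of -0.65 ± 0.38 did not pass (limma adjusted *p* = 0.16). Without that array it was -0.09 (adjusted *p* = 0.34).

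In homologous recombination 3 of 5 members rose and none fell, beside 35% and 15.3% of all genes, and the single mismatch repair member rose. Counts of so few genes say nothing particular about a route. Brca2, which loads the recombinase, rose by 0.27, Rad51d, a recombinase paralogue, by 0.23 and Rad52, a strand-annealing factor, by 0.16, while Xrcc2 and Xrcc3, further paralogues, were at -0.03 and 0.04 and did not pass. Msh6, the mismatch recognition subunit, rose by 0.26.

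Of the 6 genes of the p53 group 1 rose, 1 fell and 4 did not pass, where 35% of all genes rose and 15.3% fell. The median of the group was 0.28 beside 0.14 for all genes. Their signal summed per array was 15.09 to 15.2 in Tat-/Meth and 14.86 to 14.93 in Tat-/Sal, without overlap. The sum adds intensities before the logarithm, so that it mostly reflects the brightest genes, Gadd45g and Mdm2. Their means were 14.04 and 13.93 in Tat-/Meth and 13.57 and 13.86 in Tat-/Sal. It therefore does not show a rise shared by the 6 genes. Mdm2, the ligase that degrades p53 and is itself a p53 target, read 13.97, 13.90, 13.97, 14.02 and 13.78 in Tat-/Meth and 13.81, 13.85, 13.88, 13.80 and 13.94 in Tat-/Sal, a difference of 0.07 ± 0.06 (limma adjusted *p* = 0.35). Over the 20 arrays it stayed between 13.72 and 14.08. Cdkn1a, the p21 cell cycle inhibitor, read 9.69, 9.66, 9.58, 10.44 and 9.90 in Tat-/Meth and 9.18, 9.16, 10.11, 9.10 and 9.55 in Tat-/Sal. The groups overlapped, since replicate 3 of Tat-/Sal was above 4 of the 5 Tat-/Meth arrays, and the difference of 0.43 ± 0.21 did not pass (limma adjusted *p* = 0.0898). Without that array it was 0.60 and passed (adjusted *p* = 0.014).

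The 3 Gadd45 genes, small stress proteins, went separate ways in Tat-/Meth. Gadd45a read 8.59, 8.74, 8.39, 8.47 and 8.79 against 9.04, 9.31, 8.81, 9.04 and 8.97 in Tat-/Sal. All Tat-/Meth arrays were lower, and it fell by 0.44 ± 0.11 (limma adjusted *p* = 0.00338). Gadd45a did not pass with median scaling (-0.32, adjusted *p* = 0.17) or with the added offset (-0.23, adjusted *p* = 0.071). Gadd45g read 14.09, 13.91, 14.08, 13.94 and 14.15 against 13.61, 13.59, 13.38, 13.70 and 13.55. All Tat-/Meth arrays were higher, and it rose by 0.47 ± 0.07 (limma adjusted *p* = 4.07e-05). Gadd45b read 11.42, 11.45, 11.36, 11.40 and 10.80 against 11.10, 11.02, 11.17, 11.22 and 11.07. Replicate 5 of Tat-/Meth lay below all Tat-/Sal arrays and the other Tat-/Meth arrays above them, and the difference of 0.17 ± 0.14 did not pass (limma adjusted *p* = 0.33). The difference between the changes of Gadd45a and Gadd45g was not tested.

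Trp53, which encodes p53, read 6.80, 7.83, 6.97, 7.02 and 8.08 in Tat-/Meth and 6.60, 7.05, 7.06, 6.95 and 7.09 in Tat-/Sal. Replicates 2 and 5 of Tat-/Meth were clearly higher than the other arrays of the group, the groups overlapped, and the difference was 0.39 ± 0.19 (limma adjusted *p* = 0.10). It passed in 5 of the 15 alternatives that kept all arrays. These were quantile normalization (0.54, adjusted *p* = 0.00927), median scaling (0.51) and the added offset (0.41), slide as a random block (0.40) and the replicate block (0.39). It also passed without Tat-/Meth replicate 1 (0.52). For Trp53 the lowest value under any alternative was -0.03. In Tat+/Sal it read 7.36, 7.38, 7.61, 7.55 and 7.82, and in Tat+/Meth 7.07, 7.10, 6.96, 7.03 and 7.27. All 5 Tat+/Sal arrays were above all Tat-/Sal and all Tat+/Meth arrays. The Tat+/Sal vs. Tat-/Sal difference of 0.60 ± 0.19 did not pass (limma adjusted *p* = 0.10). It passed in 4 of the 16 alternatives that kept all arrays and in 0 of the 20 that left out 1. The others were quantile normalization (0.65, adjusted *p* = 0.0368), a random block for slide (0.61, 0.016) and the replicate block (0.60, 0.0484). Across all fits the adjusted *p* went up to 0.87. These groups share no slide, and the random block had a within-slide correlation of -0.06. Passing with it therefore does not separate Tat from slide. The interaction, the Meth effect with Tat minus the one without, was -0.85 ± 0.27 and passed (limma adjusted *p* = 0.0208), and without scaling it was -0.36 and did not (adjusted *p* = 0.28).

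**Figure D3:**
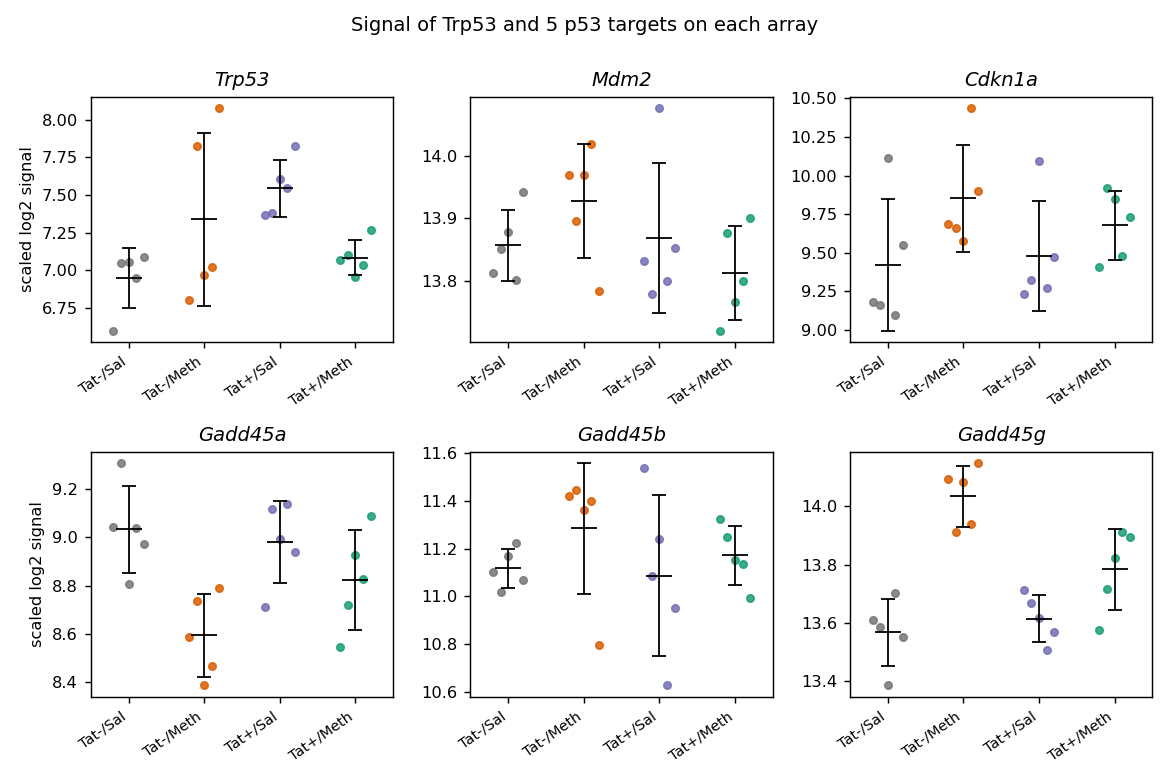
Scaled log2 signal (y axis, a separate range per gene) of Trp53 and 5 of its targets on each array, by group (x axis), with the mean and SD of 5 arrays. In Tat-/Meth, Gadd45a lies below and Gadd45g above all Tat-/Sal arrays; Trp53 is spread from 6.80 to 8.08 in Tat-/Meth and lies between 7.36 and 7.82 in Tat+/Sal.

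The Tat+/Meth vs. Tat-/Meth comparison asks what Tat did in Meth-treated mice. It shares the Tat-/Meth arrays with the comparison above, so that the values of both stand side by side here and are no independent support of each other. Of the 39 members 20 passed, 3 higher and 17 lower, against 54.4% of all genes (16% higher, 38.5% lower). The median change was -0.17 for the members and -0.15 for all genes. Ung read 13.85, 13.65, 14.05, 13.97 and 13.56 in Tat+/Meth and differed by -0.75 ± 0.10 log2 units (limma adjusted *p* = 4.92e-06). Nbn read 9.40, 8.98, 8.94, 9.37 and 8.65 and differed by -0.69 ± 0.12 (limma adjusted *p* = 0.000102). All Tat+/Meth arrays of both genes were below all Tat-/Meth arrays.

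Lig4 read 10.05, 10.02, 10.13, 9.93 and 10.09 in Tat+/Meth and 10.72, 10.51, 10.56, 10.72 and 10.43 in Tat-/Meth, a difference of -0.54 ± 0.07 (limma adjusted *p* = 2.32e-06). Xrcc5 read 10.88, 10.83, 10.87, 10.81 and 10.98 in Tat+/Meth and differed by -0.49 ± 0.06 (limma adjusted *p* = 9.07e-07). These 2 end-joining genes also had no overlap between the groups. The 3 higher members were Chek1, Rad50 and Lig1. Chek1 read 6.75, 6.35, 6.12, 6.83 and 7.16 in Tat+/Meth, 1.33 ± 0.16 above Tat-/Meth (limma adjusted *p* = 1.88e-06), and was again the only member past 2-fold, against 7.22% of all genes. Since only 1 of the 5 Tat-/Meth arrays had Chek1 well above background, its size is uncertain, and with the added offset it was 0.32 (adjusted *p* = 0.027), no longer past 2-fold. Rad50 read 11.02, 10.99, 10.99, 10.66 and 10.82, with 1 array inside the Tat-/Meth range and 4 above it, and was higher by 0.33 ± 0.08 (limma adjusted *p* = 0.002), while its second probe was at -0.08 and did not pass.

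Lig1 read 10.85, 10.87, 10.98, 10.97 and 10.81 in Tat+/Meth and 10.75, 10.82, 10.77, 10.60 and 10.82 in Tat-/Meth, overlapping groups with a difference of 0.14 ± 0.05 (limma adjusted *p* = 0.0319). It was lost when any of 4 arrays was left out: Tat-/Meth replicate 1 (adjusted *p* = 0.052) or 4 (0.10), or Tat+/Meth replicate 3 (0.082) or 4 (0.077). The other 13 lower members were Atr, Trp53bp1, Rad51d, Xrcc6, Mutyh, Polb, Lig3, Parp2, Pcna, Ercc2, Ercc3, Msh6 and Gadd45g, at -0.23 to -0.47. A second Rad51d probe, well above background on all 20 arrays, was at -0.07 and did not pass (limma adjusted *p* = 0.30 over all probes). Atm's probes disagreed here too, at 0.07 (adjusted *p* = 0.59) and -0.57 (adjusted *p* = 4.54e-05). Without scaling, 13 of the passing members were higher and 1 lower.

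**Figure D4:**
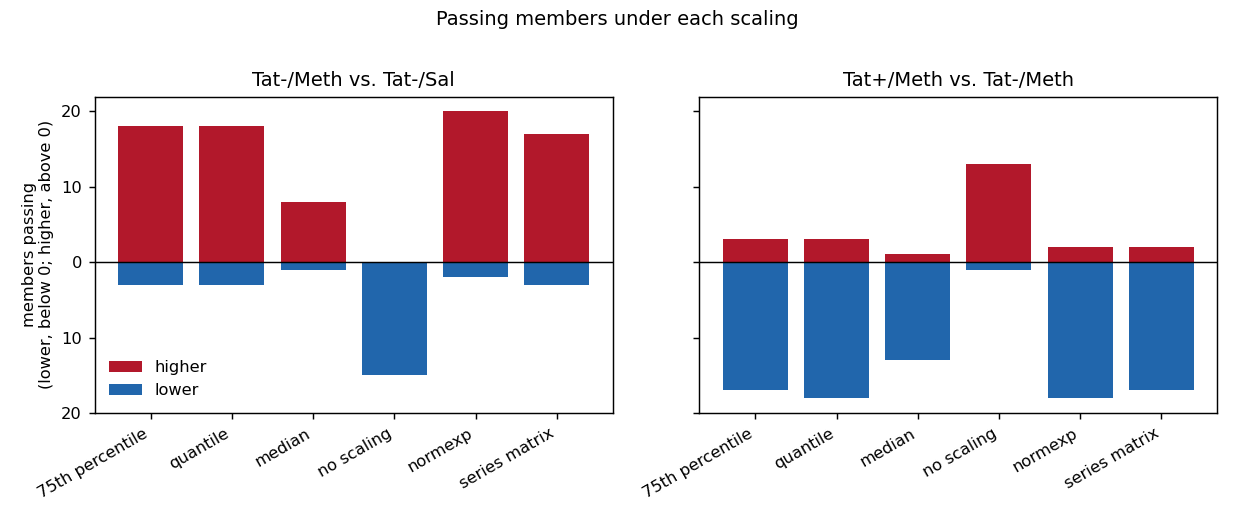
Number of the members that passed (y axis; higher above 0, lower below 0) in Tat-/Meth vs. Tat-/Sal (left) and Tat+/Meth vs. Tat-/Meth (right) under each way of scaling the arrays (x axis). With no scaling the split turns from 18 higher and 3 lower to 0 and 15 on the left, and from 3 and 17 to 13 and 1 on the right.

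Tat on its own, in Tat+/Sal vs. Tat-/Sal, moved 2 members past the threshold, 1 higher and 1 lower, against 1.42% of all genes (0.768% higher, 0.649% lower). No member was past 2-fold, against 0.0199% of all genes, and 11 were at an unadjusted *p* under 0.05, against 20.5%. Rad52 read 9.35, 9.30, 9.38, 9.42 and 9.52 in Tat+/Sal and 9.10, 9.0, 9.24, 9.08 and 9.06 in Tat-/Sal. Its groups did not overlap and it was 0.30 ± 0.05 higher (limma adjusted *p* = 0.0185). Pcna read 13.22, 13.21, 12.95, 13.02 and 12.97 in Tat+/Sal and 13.60, 13.48, 13.25, 13.38 and 13.27 in Tat-/Sal, again without overlap, and differed by -0.32 ± 0.07 (limma adjusted *p* = 0.0386). Atr came next with 10.73, 10.67, 10.63, 10.38 and 10.58 in Tat+/Sal and 10.94, 10.89, 10.82, 10.71 and 10.82 in Tat-/Sal, and its difference of -0.24 ± 0.07 did not pass (limma adjusted *p* = 0.0693).

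These groups lie on separate slides, linked only through the Tat+/Meth arrays. With slide as a block Rad52 was at 0.21 and Pcna at -0.31, and neither passed (adjusted *p* = 0.87 for both). Leaving out arrays also ended the calls: Rad52 did not pass without Tat-/Sal replicate 1, 2 or 4 or Tat+/Sal replicate 5, and Pcna did not pass in 10 of the 20 fits that left out 1 array, of which 4 removed an array of another group. The count of 2 became 0 when replicate 1 of Tat-/Sal was left out, and 4 when replicate 3 was.

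Meth in mice with Tat, Tat+/Meth vs. Tat+/Sal, gave no member past the adjusted threshold in limma, as for all genes (0%). At an unadjusted *p* under 0.05, 8 members passed, against 12.2% of all genes, and by the methods' t-test, unadjusted and without the further filters of the methods, 9 did, against 11% of all genes, with 0 after Benjamini-Hochberg. The smallest *p* belonged to Brca2, which read 8.17, 8.03, 8.51, 8.10 and 8.12 in Tat+/Meth and 7.82, 7.89, 7.95, 7.86 and 7.84 in Tat+/Sal. All Tat+/Meth arrays were above all Tat+/Sal arrays, by 0.32 ± 0.09 (limma adjusted *p* = 0.22). Msh6 followed with 11.71, 11.87, 11.90, 11.70 and 11.82 against 11.65, 11.77, 11.66, 11.49 and 11.56, 0.17 ± 0.06 (limma adjusted *p* = 0.29), and Pcna with 13.15, 13.34, 13.31, 13.21 and 13.29 against 13.22, 13.21, 12.95, 13.02 and 12.97, 0.19 ± 0.07 (limma adjusted *p* = 0.33). Among p53 and its targets, Trp53 was at -0.46 (adjusted *p* = 0.36), Gadd45g at 0.17 (0.37) and Mdm2 at -0.06 (0.75), and Cdkn1a, Gadd45a and Gadd45b were at 0.20, -0.16 and 0.08.

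Between Tat+/Meth and Tat-/Sal no member passed either, as for all genes (0%), with 4 members at an unadjusted *p* under 0.05, against 7.79% of all genes. By the methods' t-test, unadjusted, 5 passed, against 9.19% of all genes, and 0 after Benjamini-Hochberg. Rad52, Gadd45g and Lig1 had the smallest *p*, at 0.19 ± 0.05, 0.22 ± 0.07 and 0.14 ± 0.05, each with a limma adjusted *p* of 0.64. Within slide 2, where 3 Tat+/Meth and 5 Tat-/Sal arrays lie together, these differences were 0.16, 0.14 and 0.15.

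The interaction was past the threshold in 17 members, 2 higher (Chek1 and Rad50) and 15 lower, against 36% of all genes (12.4% higher, 23.6% lower). Xrcc5 was at -0.51 ± 0.08 (limma adjusted *p* = 6.85e-05), Ercc3 at -0.58 ± 0.11 (limma adjusted *p* = 0.000672), Ung at -0.70 (adjusted *p* = 0.000739) and Chek1 at 1.67 ± 0.23 (limma adjusted *p* = 1.86e-05). Only Chek1 was past 2-fold, against 7.44% of all genes, and with the added offset it was 0.48 (adjusted *p* = 0.0301) and no longer was. The Rad50 value rests on 1 of 2 probes: in the other probe the Meth effect was -0.09 without Tat and -0.08 with Tat, and neither passed. In base excision repair 6 of 9 members passed with a lower Meth effect in Tat+ than in Tat- mice. Without scaling, 16 members passed, all as higher, and the median of all genes moved from -0.14 to 0.35. With median scaling 6 members passed, 1 higher and 5 lower, and that median was -0.37.

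A wider list of 83 other repair genes, drawn up with earlier results of these data known, had 78 tested genes, of which 31 were higher and 5 lower in Tat-/Meth vs. Tat-/Sal, beside the 35% and 15.3% of all genes. Its median change was 0.17, and that of all genes 0.14. The 5 lower genes, named because they are few, were Bard1, Uimc1, Rev1, Clspn and Rpa1. Bard1, the partner of Brca1, read 7.66, 7.79, 7.51, 7.61 and 7.68 in Tat-/Meth and 13.53, 13.01, 13.56, 13.52 and 13.53 in Tat-/Sal, a difference of -5.78 ± 0.28 (limma adjusted *p* = 1.37e-11). In Tat+/Meth it read 13.04, 13.46, 13.08, 14.16 and 13.84. This rests on 1 of 3 Bard1 probes: another that was well above background on all 20 arrays differed by 0.20 (adjusted *p* = 0.41 over all probes), and the last was well above background on none.

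Uimc1, which encodes the RAP80 protein that brings the Brca1 complex to ubiquitin at breaks, did not rise well above background on any of the 5 Tat-/Meth arrays and read 8.45, 8.38, 8.76, 8.30 and 9.02 in Tat-/Sal. It is therefore given as at least 9.88-fold lower in Tat-/Meth, while the measured difference was -4.82 log2 units (limma adjusted *p* = 1.58e-09 for that difference). This bound sets the mean of Tat-/Sal against that of the lowest signal counted as well above background on each Tat-/Meth array. Against Tat+/Meth, which read 8.76, 8.49, 8.51, 8.09 and 8.30, it was at least 8.90-fold lower (limma adjusted *p* = 2.36e-09 for the measured difference). It has a single probe. Rev1, a translesion polymerase, fell by 0.71, Clspn, the claspin that Chek1 activation needs, by 0.68, and Rpa1, which coats single strands, by 0.23. Fancd2 of the Fanconi anaemia pathway was the gene of this list that rose past 2-fold, by 1.21 ± 0.41 (limma adjusted *p* = 0.0211). It read 5.13, 7.54, 5.53, 6.26 and 6.13 in Tat-/Meth and 5.11, 5.05, 4.54, 5.51 and 4.36 in Tat-/Sal, where only 3 of 5 arrays had it well above background, and the groups overlapped. Fancd2 reached the limit of 6 only through Tat-/Meth, with a mean of 6.12 there and of 4.91, 4.81 and 5.32 in Tat-/Sal, Tat+/Meth and Tat+/Sal, so that its passing supports nothing further.

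**Figure D5:**
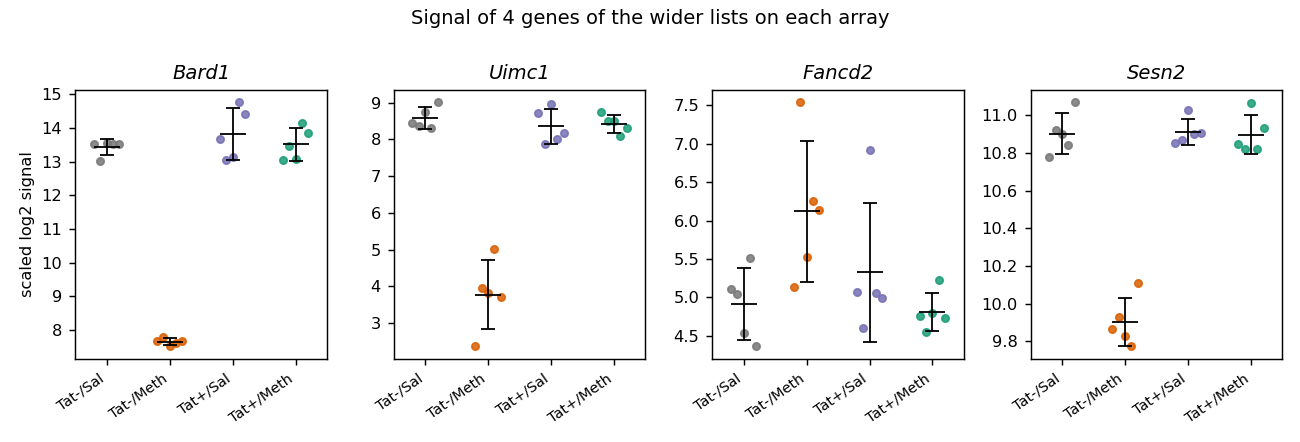
Scaled log2 signal (y axis, a separate range per gene) of Bard1, Uimc1, Fancd2 and Sesn2 on each array, by group (x axis), with the mean and SD of 5 arrays. Bard1, Uimc1 and Sesn2 are lower on all 5 Tat-/Meth arrays than on any other array; Uimc1 is not well above background there, and Fancd2 overlaps between groups.

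Of 24 other p53 targets, listed in the same way, 22 were tested, and 10 were higher and 4 lower in Tat-/Meth vs. Tat-/Sal, beside the 35% and 15.3% of all genes, with a median of 0.20. The 4 lower genes, named because they are few, were Sesn2, Rrm2b, Tnfrsf10b and Zmat3. Sesn2, the stress protein sestrin 2, read 9.87, 9.93, 9.83, 9.78 and 10.11 in Tat-/Meth and 10.78, 10.92, 10.90, 10.84 and 11.07 in Tat-/Sal, a fall of 1.0 ± 0.07 (limma adjusted *p* = 1.53e-09). Rrm2b, the p53-induced ribonucleotide reductase subunit, fell by 0.85, Tnfrsf10b, a death receptor, by 0.68 and Zmat3, an RNA-binding protein, by 0.27. In Tat+/Meth vs. Tat-/Meth, Pmaip1, which encodes the death protein Noxa, read 5.89, 7.18, 6.60, 7.28 and 6.54 against 7.82, 7.84, 8.09, 7.65 and 7.22 and was lower, at -1.03 ± 0.23 (limma adjusted *p* = 0.00116). Tnfrsf10b was also the only gene of this list that passed in Tat+/Sal vs. Tat-/Sal, at -0.50 (adjusted *p* = 0.042), and its interaction of 1.14 passed and was past 2-fold (adjusted *p* = 3.88e-05). The Tat+/Meth arrays read 7.66 to 7.73 on slide 2 and 7.12 to 7.24 on slide 3. Within slides they differed by 0.16 from Tat-/Sal and by 0.15 from Tat+/Sal, so that Tat and slide cannot be told apart in the -0.50.

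Markers of cell types were counted in Tat-/Meth vs. Tat-/Sal in the same way, beside the 35% of all genes that were higher and the 15.3% that were lower. Of 11 tested genes of dividing cells 4 were higher and none lower, and their signal summed per array was 12.45 to 13.15 in Tat-/Meth and 11.99 to 12.86 in Tat-/Sal, which overlap. Of 6 astrocyte markers 3 were higher and none lower, with the sum at 15.68 to 15.96 and 15.57 to 15.64, without overlap. Of 8 microglia markers 3 were higher and 1 lower, at 15.99 to 16.07 and 15.88 to 16.1, which overlap. Of 5 endothelial markers 2 were higher and none lower, at 14.81 to 15.29 and 14.58 to 14.9, which overlap. Of 5 markers of neurons Nefl was higher, by 0.36, Snap25 fell by 0.74 and 3 did not pass, with a median change of 0.07. Their sum was 17.83 to 18.01 in Tat-/Meth and 18.09 to 18.36 in Tat-/Sal, without overlap. Each of these sums adds intensities before the logarithm, so that the brightest probes weigh most. Among the neuron markers that is Snap25, with a mean of 17.18 in Tat+/Meth on slide 2, so the sum does not show a fall shared by the 5. Among the striatal markers named above Penk and Rgs9 were lower, at -0.30 and -0.24, and Drd1, Drd2, Ppp1r1b, Adora2a and Tac1 did not pass. In both Tat+ groups the dividing cell sum was 12.27 to 13.08 and the astrocyte sum 15.39 to 15.69. The part of these cells in the results was not tested.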

How the data were processed

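RNA of 20 mouse brains was hybridised to 1-colour Agilent arrays with 55681 probes. The authors deposited scanner files (Feature Extraction 10.7.3.1) with the intensity of each spot, background-subtracted but not scaled between arrays, and a series matrix of intensity values whose processing is not given in the sources used here. The labels name Cy3, while the study's methods name Cy5 and another scanner. Here the log2 processed signal was shifted so that arrays had 1 common 75th percentile, 4278 outlier spots were left out, and the brightest probe stood for a gene. Genes reaching a group mean of 6 were fitted in limma 3.58.1 (R 4.3.3) over all 4 groups, with Benjamini-Hochberg adjustment. Members and lists were chosen with earlier results of these data known. Values per array are given for p53 and its 5 targets, for the 4 largest changes per direction among passing members well above background on at least 4 arrays of both groups in the comparisons of Tat-/Meth with Tat-/Sal or with Tat+/Meth, for the 3 smallest *p* in the other comparisons, and for genes of the wider lists past 2-fold. Chek1 and Ercc1 were added after their values were seen. Alternatives changed the scaling, background correction (normexp on median signals, offset 50), filter, probe rule, slide and replicate blocks, test and arrays. Replicates were separate samples by the labels, and 5 arrays per group limit the precision. The fit was tested on simulated data.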

Additional observations from a re-analysis of the deposited data

Results flagged for a closer look

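The Meth effect in Tat+ mice differed from that in Tat- mice in 17 members, by the interaction in limma at an adjusted *p* under 0.05. Higher values, in log2 units, belonged to Chek1 (1.67) and Rad50 (0.46), and lower values to Apex1 (-0.31), Ercc2 (-0.59), Ercc3 (-0.58), Gadd45g (-0.30), Lig3 (-0.32), Lig4 (-0.37), Mutyh (-0.31), Nbn (-0.53), Parp1 (-0.31), Polb (-0.41), Rad52 (-0.26), Trp53 (-0.85), Trp53bp1 (-0.40), Ung (-0.70) and Xrcc5 (-0.51). The Rad50 value rests on 1 of 2 probes, and in the other the Meth effect was -0.09 without Tat and -0.08 with Tat, and neither passed. With normexp background correction on median signals and an offset of 50 Chek1 was at 0.48, and without scaling Trp53 was at -0.36 and did not pass. The Gadd45g value no longer passed in 8 of the 20 fits that left out 1 array. It also no longer passed in 4 of the 12 other alternatives, and it changed sign without scaling. Over all genes 36% passed, and group and slide cannot be told apart for the Tat-/Meth arrays that enter every one of these values.

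A single array lay apart from the other 4 of its group in 13 of 156 groups of member values, where chance gives about 1 in 20. In Tat-/Meth these were Ercc1 in replicate 1 at 7.88 (others 10.53 to 10.77), Gadd45b in replicate 5 at 10.80 (others 11.36 to 11.45) and Rad50 in replicate 1 at 10.76 (others 10.5 to 10.54). In Tat-/Sal these were Ercc2 in replicate 5 at 10.31 (others 10.87 to 11.07), Trp53 in replicate 1 at 6.60 (others 6.95 to 7.09) and Xrcc1 in replicate 5 at 12.57 (others 12.74 to 12.79). In Tat+/Meth these were Lig3 in replicate 5 at 9.60 (others 9.28 to 9.36) and Xrcc2 in replicate 4 at 8.26 (others 8.11 to 8.14). In Tat+/Sal these were Atm in replicate 3 at 8.07 (others 8.46 to 8.59), Cdkn1a in replicate 3 at 10.09 (others 9.23 to 9.47), Ercc2 in replicate 4 at 11.22 (others 10.88 to 10.98), Mdm2 in replicate 3 at 14.08 (others 13.78 to 13.85) and Trp53bp1 in replicate 5 at 11.75 (others 11.46 to 11.51).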

How the results depend on the processing

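The number of members that passed in Tat-/Meth vs. Tat-/Sal was 21, and became 9 with median scaling, 1 above 2-fold and 0 at an adjusted *p* under 0.01 above 3-fold. In Tat+/Meth vs. Tat-/Meth it was 20, and became 1 and 0 at those limits. The interaction count of 17 became 6 with median scaling and 1 at either fold limit. In Tat+/Sal vs. Tat-/Sal the count of 2 became 4 with quantile normalization, 1 with the series matrix values or no filter, 12 by the methods' t-test unadjusted, 9 with slide as a random block (correlation within slides -0.06), and 0 with median scaling, no scaling, normexp, slide as a fixed block, only the groups compared, the methods' t-test after Benjamini-Hochberg, and both fold limits. The methods' t-test unadjusted gave 9 for Meth with Tat and 5 for both against neither, where limma unadjusted gave 8 and 4, and both tests gave 0 after adjustment. Among values that passed in the main or the alternative fit, the direction turned for Lig1 in Tat+/Meth vs. Tat-/Meth with median scaling (-0.014). Without scaling it turned for Mdm2 in Tat-/Meth vs. Tat-/Sal (-0.35), for Mdm2 under Meth with against without Tat (0.22) and for its interaction (0.36), and for Gadd45g in Tat+/Meth vs. Tat-/Meth (0.086) and in the interaction (0.19). The cause was not tested. Leaving out 1 array gave 20 to 22 members for Meth without Tat, 18 to 22 for Tat under Meth, 0 to 4 for Tat under saline, 0 to 0 for Meth with Tat as well as for both against neither, and 14 to 17 for the interaction. Values of single members were also followed under alternatives that kept all arrays. Of these 854 stayed on their side of the threshold, 41 no longer passed, 28 newly passed and 6 turned as listed above. The methods' t-test without adjustment was judged here at its unadjusted *p*. Part of the 28 come from it and are no passes by the adjusted limit, as for Brca2 in Tat+/Meth vs. Tat+/Sal. The 854 include changes of sign where neither fit passed. In Tat-/Meth vs. Tat-/Sal the lowest values under any alternative were -0.24 for Cdkn1a, -0.25 for Gadd45b and -0.03 for Trp53. Same-numbered arrays correlated at -0.18 to 0.35 and 7 of 20 arrays were closest to their own number, so the numbers were not taken to pair the arrays. With the replicate block 4 members passed in Tat+/Sal vs. Tat-/Sal, and 23 for Meth without Tat, 20 for Tat under Meth and 17 for the interaction. Slide as a fixed block could not be fitted for comparisons with Tat-/Meth, nor the methods' t-test for the interaction. Chek1 and Fancd2 were near background in part of the arrays, which limits their size.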
